A study of Mus musculus with 48 samples.

Results

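The 10 genes followed here belong to the deep gastric gland, 4 to mucous neck cells (Muc6, A4gnt, Tff2, Aqp5), 4 to chief cells (Pgc, Pga5, Cblif, Chia1) and 2 to secretory cells in general (Bhlha15, Rab3d), and were measured in a mouse study of Barrett oesophagus. Each gene was represented by its brightest probe set with a single gene symbol, and all 10 of the 10 were found among 22180 gene symbols. Tissue of the squamocolumnar junction and cardia, where the oesophagus meets the stomach, was measured whole on 48 Affymetrix arrays, 1 array per sample, in 16 groups of 3. Its question was what diet, interleukin-8, FXR (a nuclear receptor for bile acids) and Notch do to disease progression in a line with an interleukin-1 beta transgene.

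The model line is labelled pl2 and written pL2 here; in the published model the transgene is driven by an Epstein-Barr virus promoter active in squamous lining. Wild-type (WT) and pL2 mice aged 12 months were kept at a facility named MRI on chow, and at a facility named Freising on chow or on a high fat diet (HFD). The FXR line, the pL2_FXR cross and the pL2_IL8 line, aged 12 months, came from MRI on chow, as did a second pL2_IL8 group aged 9 months. The 6 further MRI groups carried the pL2 transgene with a Notch change: Notch1fl, Notch2fl (floxed genes) or Notch2IC (with a LacZ label), each in an Lgr5 and in a Dclk line. These Notch groups received tamoxifen at 3 to 6 months and were 9 to 13 months old, and the labels give tamoxifen for no other group. The labels do not say what the FXR change does to the receptor, give no sex, and do not say how the arrays of a group relate, so p-values measure the spread between these samples. All values are log2 signals, in which a difference of 1 is a 2-fold difference.

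Oxyntic glands renew from an isthmus. Mucous neck cells lie below it and mature, toward the base, into chief cells, which store digestive zymogens in granules under the transcription factor Bhlha15 (Mist1). After loss of parietal cells or inflammation, chief and neck cells can take on a mixed state called spasmolytic polypeptide-expressing metaplasia (SPEM), in which Tff2 and Muc6 are made together with stress and wound genes.

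Among neck cell genes, Muc6 encodes the gel-forming mucin of gland mucous cells, A4gnt the enzyme that caps gland mucin sugars with alpha-linked N-acetylglucosamine, Tff2 the trefoil peptide secreted with that mucin, and Aqp5 a water channel. Among chief cell genes, Pgc and Pga5 encode pepsinogens, Cblif (formerly Gif) gastric intrinsic factor, which mouse chief cells make, and Chia1 an acidic chitinase. Bhlha15 scales up the secretory apparatus of zymogenic cells, and Rab3d encodes a small GTPase of secretory granules. The signal of all 10 genes lay above the array median in 48 of 48 arrays.

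Array medians lay between 4.03 and 4.27, and arrays of a group correlated at 0.918 to 0.989 (median 0.977). Marker lists of other organs were high in some arrays, and where that signal came from was not tested. The hepatocyte list mean ran from 4.20 to 10.57 over the arrays and the intestinal list mean from 5.22 to 10.50, and 10 arrays exceeded 8 in either. Lgr5_Notch1fl replicate 2, highest of all in hepatocyte genes, had the lowest Pgc (11.81), Cblif (8.67), Chia1 (10.74) and Bhlha15 (5.23) of the 48 arrays. Lgr5_Notch2IC replicate 3, highest in intestinal genes, had the lowest Tff2 (11.29), A4gnt (6.61), Pga5 (5.38) and Rab3d (8.47). The pancreatic acinar list mean stayed between 3.96 and 5.83, and Prss2, a trypsinogen gene, was above the array median in no array. In whole tissue, fewer cells of a type and less RNA per cell cannot be told apart, which applies to every difference below.

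Muc6, Aqp5 and A4gnt varied more between arrays of a group than 80.7%, 91.8% and 93% of tested genes, and Tff2 more than 58.1%. The within-group SD was 0.43 for Muc6, 0.64 for A4gnt, 0.60 for Aqp5 and 0.30 for Tff2, against a median of 0.28 over all tested genes. Muc6 was highest in Lgr5_Notch1fl (12.32, 11.31 and 12.51) and lowest in pL2 mice at MRI (11.56, 10.35 and 10.64). These groups overlapped, and the lowest Muc6 of the 48 arrays was in pL2 mice at MRI. A4gnt was highest in Lgr5_Notch2fl (mean 8.61 ± 0.81, SD, n = 3) and, like Muc6, lowest in pL2 mice at MRI (7.55 ± 0.57). Aqp5 was highest in the IL8 line at 9 months (7.89, 7.79 and 7.42) and lowest in pL2 mice on chow at Freising (5.32, 5.57 and 6.42), with no overlap. These groups were picked as the extremes of 16, so the lack of overlap is not a test. They also differ in genotype, facility and age. Tff2 had group means between 12.30 and 12.93. For these 4 genes no pair of neighbours in the order of the 16 group means differed by more than the within-group SD. Sorting 16 means makes neighbours lie close, so this does not show that the groups are alike. Aqp5 group means spanned 1.93, against a within-group SD of 0.60.

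Chief cell genes differed in spread. Pgc had the smallest within-group SD of the members (0.20), but its highest value (13.29) lay near the highest of any probe set (13.60), so this SD is not read as steadiness. Its group means lay between 12.50 in Lgr5_Notch1fl and 13.20 in WT mice on chow at Freising. Cblif spanned 10.09 ± 1.36 in Lgr5_Notch1fl to 12.19 ± 0.34 in WT mice on HFD (SD, n = 3 each), a difference of 2.11 between group means. Pga5 had the widest range, 6.73 ± 1.76 in Lgr5_Notch2IC to 9.35 ± 0.48 in the IL8 line at 9 months, and a within-group SD of 0.78, larger than that of 96% of tested genes. Chia1 was lowest in Lgr5_Notch2IC (11.93) and highest in WT mice on chow at Freising (13.09). Its highest value (13.15) was also near the highest of any probe set. The 5 highest means of Cblif included the 3 WT groups and the FXR line, and 4 of the 5 groups carried no transgene. Bhlha15 was likewise highest in the FXR line (7.77 ± 0.76) and next in the WT groups at Freising (7.71 ± 0.38 on chow, 7.33 ± 0.39 on HFD), and lowest in Lgr5_Notch1fl (6.03 ± 0.72). Rab3d behaved differently, with its highest mean in pL2 mice at MRI (9.40 ± 0.23) and its lowest in WT mice on HFD (8.77 ± 0.15). Neighbouring groups differed by more than the within-group SD once for Pgc and once for Chia1, and at 0 places for Cblif, Pga5, Bhlha15 and Rab3d. Here too sorting brings neighbours close: Cblif spanned 2.11, against a within-group SD of 0.63.

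**Figure D1:**
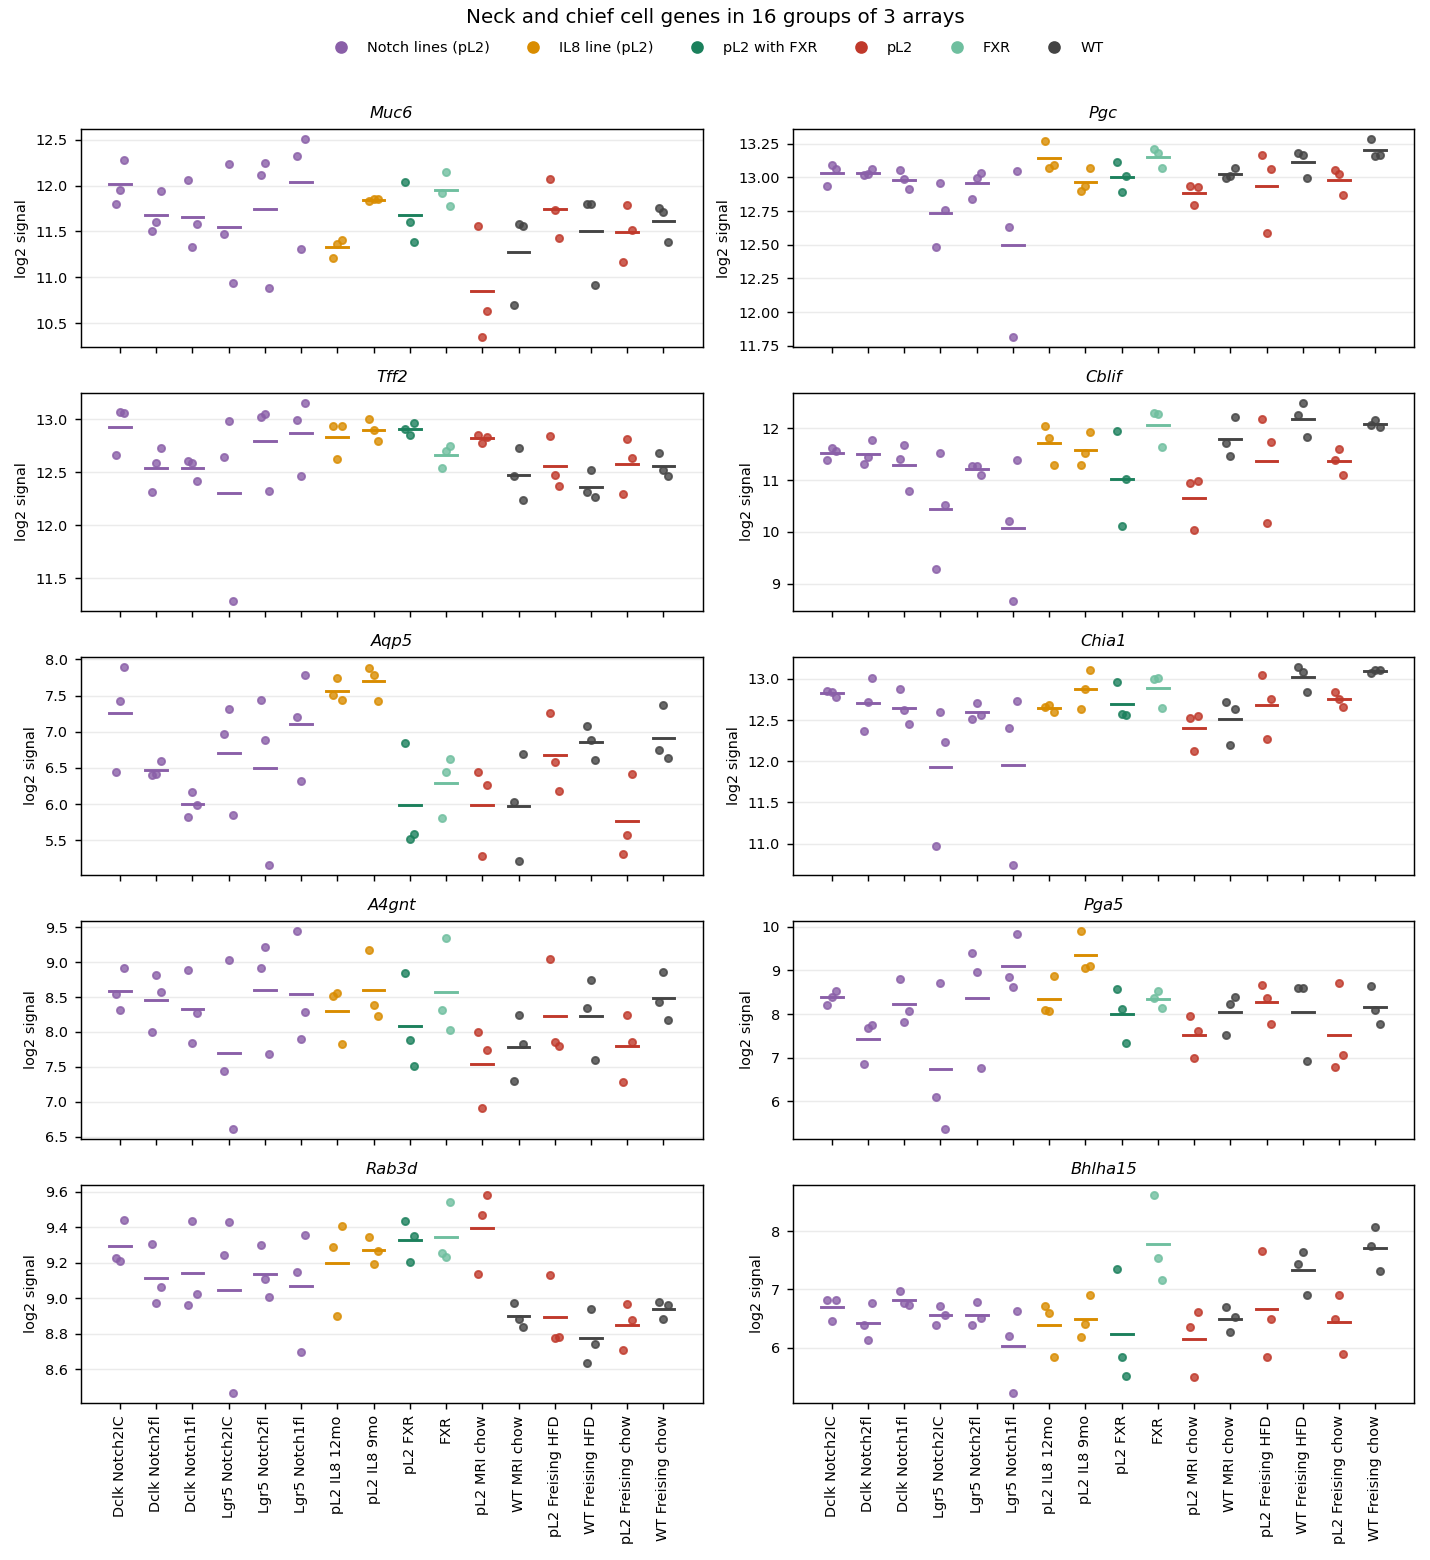
Log2 signal of the 10 genes (vertical axes, each with its own scale) in the 16 groups (horizontal axis); points are the 3 arrays of a group, bars their mean, colours the kind of line. Cblif stands highest in the WT and FXR groups, Bhlha15 in FXR and in WT at Freising (but not in WT at MRI), Aqp5 in the IL8 groups, and single arrays of the Lgr5 lines fall far below their group.

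Across the 48 arrays the members fell largely into a neck set and a chief set, with Pga5 on the neck side. Pgc, Cblif and Chia1 moved together (Pearson's r 0.874 to 0.897 between pairs, and 0.866 to 0.873 for deviations from the group means). Bhlha15 followed them at r 0.62 to 0.73. Pga5, a pepsinogen gene, did not: its r with Pgc, Cblif and Chia1 was 0.13 to 0.30 (0.30 to 0.41 within groups). With the 4 neck cell genes its r was 0.55 to 0.72 (0.58 to 0.84 within groups). Muc6, A4gnt and Pga5 correlated with each other at 0.70 to 0.79 (0.74 to 0.84 within groups). The 4 neck cell genes had r between 0.44 and 0.79 with each other (0.57 to 0.80 within groups). With Pgc, Cblif and Chia1 their r was between 0.04 and 0.38 (0.18 to 0.49 within groups). Rab3d went with Tff2 (0.71, and 0.73 within groups) and less with Pgc, Cblif and Chia1 (0.03 to 0.16, and 0.18 to 0.36 within groups). Without the 10 arrays high in hepatocyte or intestinal genes, the trio of Pgc, Cblif and Chia1 kept r between 0.82 and 0.90, and Pga5 with the trio stayed between 0.24 and 0.42. Without Lgr5_Notch2IC replicate 1 and Lgr5_Notch1fl replicate 2, r within the trio was 0.73 to 0.86. These 45 pairwise values describe arrays that share groups, tissue and normalisation, and the trios were named after the values were seen.

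**Figure D2:**
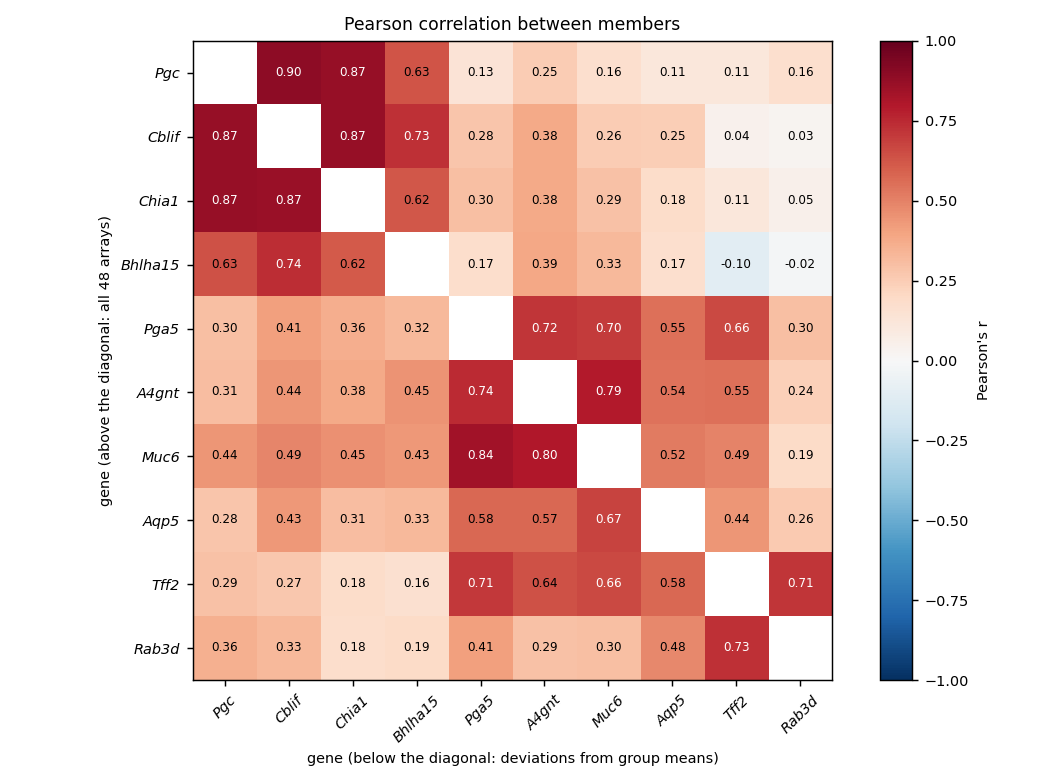
Pearson's r between members, shown as numbers and colour; both axes list the 10 genes, with values over all 48 arrays above the diagonal and of deviations from group means below it. Pgc, Cblif, Chia1 and Bhlha15 form a block at the upper left, and Pga5 sits with A4gnt, Muc6, Aqp5 and Tff2.

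The mean of Pgc, Cblif and Chia1 had its highest r with the endocrine list mean (Ghrl, Sst and 8 others), at 0.84, then with the pancreatic acinar list (0.77), the parietal list (0.73) and smooth muscle genes (0.63). For deviations from the group means these were 0.87, 0.66, 0.69 and 0.44. With a list of further chief cell genes, such as Gper1, the same mean had r of 0.58 (0.45 within groups). The mean of Muc6, A4gnt and Pga5 had r of 0.18 with the endocrine and 0.29 with the parietal list, and 0.30 and 0.56 within groups. With a list of other neck and SPEM genes, such as Gkn3, its r was 0.26 (0.61 within groups). With a list of secretory machinery genes such as Xbp1 and Kdelr3 its r was 0.73 (0.76 within groups), against 0.51 (0.59) for the mean of Pgc, Cblif and Chia1. With squamous keratinocyte genes it was -0.47 (-0.605 within groups), against -0.18 (-0.49). Tff2 and Rab3d had r of 0.64 and 0.68 with pit (surface mucous) cell genes. Bhlha15 had r of -0.65 (-0.40 within groups) and Cblif of -0.56 (-0.50 within groups) with neutrophil genes. All are descriptions over 48 arrays that share normalisation.

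**Figure D3:**
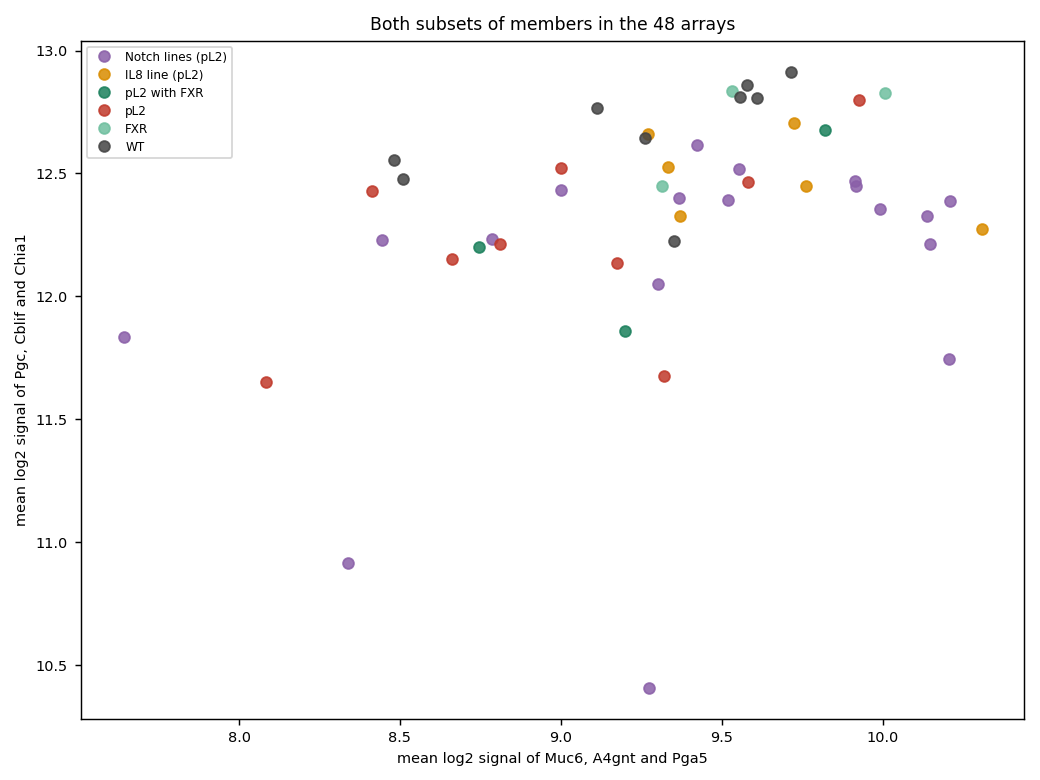
Mean log2 signal of Muc6, A4gnt and Pga5 (horizontal) and of Pgc, Cblif and Chia1 (vertical) in each of the 48 arrays, coloured by kind of line. Most arrays lie in a flat band above 12 on the vertical axis, and the lowest point on that axis is Lgr5_Notch1fl replicate 2.

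The symbols whose pattern over the 48 arrays was most like each member, 5 apiece, are listed next. They come from the same arrays and the same r as the pairs above, so they are not separate evidence for that division. Pla2g1b, a secreted phospholipase gene, was nearest to Pgc (r 0.92) and to Chia1 (0.95), and Tmed6, a secretory pathway cargo gene, was nearest to Cblif (0.95). Cckar, the cholecystokinin receptor gene, followed for Cblif (0.94) and was among the 5 for Chia1 (0.84); Clps, Pnliprp1, Furin and Ghrl also appeared for this trio. Bhlha15 was most like Gper1, a membrane oestrogen receptor gene used as a chief cell marker (0.88), then Glp1r, Pnliprp2, Ell2 and Gdf9 (0.82 each). Muc6 was nearest to A4gnt (0.79), then Klk1, Chad, Padi2 and Creb3l1. A4gnt was nearest to Muc6, then D930020B18Rik, Mrpl57, Pga5 and Creb3l4 (0.71 to 0.77). Pga5 was nearest to Trim24 (0.82), Cpn1 (0.81), Creb3l4 (0.76), Padi2 (0.75) and Man2a1 (0.73), with no chief cell gene among them. Aqp5 was nearest to Cpn1 (0.79), then Kdelr3, Isg20, Chad and Klk1. Tff2 was nearest to Galnt7 (0.86), Golm1, Gmds, Pdxdc1 and Cpd, and Rab3d to Fads3 (0.86), Rab27a (0.85), Syngr1, Tbcd and Mal.

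Promoters are shown for the trio of Pgc, Cblif and Chia1 and for the pair of Muc6 and A4gnt, because these genes moved together. Sequences are RefSeq's, on mouse build GRCm38.p6, 5′ to 3′ on the gene's strand, from 250 bases before to 50 after the annotated start; 8 of the 10 members were found, and Tff2 and Pga5 were not matched. Capitals mark the TATA box letters TATAAA, the GATA factor words AGATAA or TGATAA, the nuclear receptor core AAGGTCA and the Mist1 E-box CATATG, searched on both strands. The regions are chr17:47726592-47726891 (plus strand) for Pgc, chr19:11747309-11747608 (plus) for Cblif, chr3:106113132-106113431 (plus) for Chia1, chr7:141655344-141655643 (minus) for Muc6 and chr9:99612252-99612551 (plus) for A4gnt.
Pgc: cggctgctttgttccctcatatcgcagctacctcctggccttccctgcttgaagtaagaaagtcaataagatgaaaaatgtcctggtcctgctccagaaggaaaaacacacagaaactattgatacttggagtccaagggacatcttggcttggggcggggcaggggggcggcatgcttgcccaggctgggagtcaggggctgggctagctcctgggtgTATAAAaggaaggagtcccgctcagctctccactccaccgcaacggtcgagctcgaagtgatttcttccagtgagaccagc
Cblif: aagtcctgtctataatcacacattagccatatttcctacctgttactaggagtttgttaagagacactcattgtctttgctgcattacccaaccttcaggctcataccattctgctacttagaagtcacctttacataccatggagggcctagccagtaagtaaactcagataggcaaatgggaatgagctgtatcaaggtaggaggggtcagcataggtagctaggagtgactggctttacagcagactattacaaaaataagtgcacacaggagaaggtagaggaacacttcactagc
Chia1: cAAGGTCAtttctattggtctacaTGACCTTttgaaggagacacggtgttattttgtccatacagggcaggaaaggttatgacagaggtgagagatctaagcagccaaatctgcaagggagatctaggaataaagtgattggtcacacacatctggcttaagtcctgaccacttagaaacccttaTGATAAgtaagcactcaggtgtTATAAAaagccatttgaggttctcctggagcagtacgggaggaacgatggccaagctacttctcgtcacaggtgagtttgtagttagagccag
Muc6: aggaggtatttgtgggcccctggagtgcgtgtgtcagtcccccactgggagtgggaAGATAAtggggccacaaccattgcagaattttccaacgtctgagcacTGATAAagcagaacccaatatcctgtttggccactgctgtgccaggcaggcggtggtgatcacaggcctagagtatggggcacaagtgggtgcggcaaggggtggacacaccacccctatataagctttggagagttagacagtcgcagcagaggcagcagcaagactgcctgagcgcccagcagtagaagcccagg
A4gnt: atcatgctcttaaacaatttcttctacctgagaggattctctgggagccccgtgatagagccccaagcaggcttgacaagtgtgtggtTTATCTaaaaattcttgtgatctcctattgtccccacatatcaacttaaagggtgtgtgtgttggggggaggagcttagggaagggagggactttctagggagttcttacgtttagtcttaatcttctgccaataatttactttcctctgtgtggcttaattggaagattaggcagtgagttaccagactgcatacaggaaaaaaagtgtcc

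None of the 5 motifs was in all 3 promoters of the trio. TATAAA lay 31 bases before the start of Pgc and 43 before that of Chia1, and was not in the window of Cblif; 13.6% of 32851 promoters hold it. The 2 GATA-type words lay 194 (AGATAA) and 147 (TGATAA) bases before the start of Muc6, 162 before that of A4gnt (AGATAA, opposite strand) and 65 before that of Chia1 (TGATAA), and 11.2% and 9.05% of promoters hold them. Chia1 alone among the 8 members held AAGGTCA (4.72% of promoters), 249 and 226 bases before its start, the nearer on the opposite strand. CATATG (3.91% of promoters) was in 0 of the 8 windows. A match is a run of letters, and nothing about the factors follows from it.

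The effect of the transgene was read from pL2 minus WT differences within MRI chow, Freising chow and Freising HFD, and as the mean of these 3 differences (9 pL2 and 9 WT arrays). In that mean, the chief cell gene Cblif fell by 0.90 and the secretory factor gene Bhlha15 fell by 0.76 on the log2 scale, and no neck cell gene passed the test. limma called 2 of 10 members, against 26.8% of all 15242 genes tested. The members' median difference was -0.29, and that of all genes 0.00.

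Cblif, the intrinsic factor gene, was 10.95, 10.03 and 10.99 in pL2 mice at MRI, against 11.72, 11.46 and 12.23 in WT mice there. On chow at Freising it was 11.38, 11.61 and 11.10 in pL2 mice, against 12.06, 12.16 and 12.02 in WT mice. On HFD it was 12.18, 10.17 and 11.75 in pL2 mice, against 12.25, 12.49 and 11.83 in WT mice. The groups did not overlap in either chow comparison, overlapped on HFD, and 8 of 9 pL2 arrays lay below every WT array of their own comparison. The mean difference was -0.90 ± 0.29 (SE; limma adjusted p = 0.0189), or 1.86-fold lower. Within each comparison the differences were -1.15 ± 0.50 (adjusted p = 0.0926) at MRI, -0.72 ± 0.50 (adjusted p = 0.494) on Freising chow and -0.83 ± 0.50 (adjusted p = 0.463) on HFD, none of which passed.

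Bhlha15 was 6.35, 5.50 and 6.62 in pL2 mice at MRI, against 6.69, 6.27 and 6.53 in WT mice. On chow at Freising it was 6.49, 6.91 and 5.90 in pL2 mice, against 7.75, 8.07 and 7.32 in WT mice. On HFD it was 7.65, 5.84 and 6.49 in pL2 mice, against 7.44, 7.65 and 6.90 in WT mice. The groups were apart on Freising chow and overlapped in the other comparisons, and 6 of 9 pL2 arrays lay below every WT array of their own comparison. The mean difference was -0.76 ± 0.24 (adjusted p = 0.0171), or 1.69-fold lower, with -1.28 ± 0.41 (adjusted p = 0.112) on Freising chow, -0.67 ± 0.41 on HFD and -0.34 ± 0.41 at MRI. Both calls ended without replicate 2 of pL2 mice on HFD (Cblif adjusted p = 0.0698, Bhlha15 adjusted p = 0.059), and that of Bhlha15 also without replicate 2 of pL2 mice at MRI (adjusted p = 0.0501). The HFD array had the lowest pit (9.19) and parietal (7.13) list means of the 48. With the mean of the pit and parietal lists as a covariate, Cblif was -0.44 (adjusted p = 0.196) and Bhlha15 -0.46 (adjusted p = 0.144), while Tff2 (0.40, adjusted p = 0.0165) and Rab3d (0.33, adjusted p = 0.00956) passed as higher.

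The other pepsinogen and chitinase genes did not pass. The mean difference of Pgc was -0.18 (95% interval -0.37 to 0.02), that of Chia1 -0.26 (-0.63 to 0.10) and that of Pga5 -0.32 (-1.03 to 0.40). The neck cell genes gave -0.10 for Muc6 (-0.50 to 0.30), 0.19 for Tff2 (-0.10 to 0.47), -0.31 for A4gnt (-0.90 to 0.27) and -0.44 for Aqp5 (-0.99 to 0.12). The intervals of Pgc, Tff2 and Muc6 reach at most 0.50 in either direction. Pgc and Tff2 (highest values 13.29 and 13.15) lay near the highest signal of any probe set (13.60), so their narrow intervals are not read as steadiness. Chia1 reached 13.15, so its difference is read with the same limit. Pgc lay below every WT array of its comparison in 7 of 9 pL2 arrays, and Chia1 in 6 of 9. Aqp5 lay below in 5 of 9 and above in 1, and Tff2 above in 5 of 9 and below in 1. Such counts were not made for all genes, so those of the members have no share to be set against.

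Other neck and SPEM genes that passed the test were higher in pL2 mice. Of 17 tested genes of that list, 9 rose in the mean and 0 fell, among them the luminal scavenger gene Dmbt1 (2.28 ± 0.31), Ceacam10 (2.11 ± 0.30), the chloride channel gene Cftr (1.92 ± 0.36) and Olfm4 (1.89 ± 0.34); Gkn3, a neck cell gene of mouse, rose by 1.23 ± 0.34. Of 4 further chief cell genes tested, Gper1 fell by 1.43 and Tnfrsf19, known as Troy, fell by 1.29, while the milk-clotting protease gene Cym rose by 1.77. Lipf was above the array median in no array. Of 15 secretory machinery genes 4 passed, a share near the 26.8% of all genes: 3 fell, such as the oxidoreductase gene Ero1b (-0.93 ± 0.27), and the stress sensor gene Ern1 rose by 0.24 ± 0.08.

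Markers of neighbouring cells moved beside Cblif and Bhlha15. Of 12 parietal cell genes 10 fell, including the proton pump genes Atp4a (-0.58 ± 0.17) and Atp4b (-0.50 ± 0.15), and the list mean was 7.13 to 8.85 in pL2 arrays, against 8.81 to 9.43 in WT arrays. Of 10 endocrine genes 7 fell, such as the somatostatin gene Sst (-1.82 ± 0.37), with list means of 6.85 to 8.07 in pL2 arrays and 7.57 to 8.43 in WT arrays. Of 8 neutrophil genes 7 rose, with list means of 6.03 to 8.73 in pL2 arrays and 3.84 to 5.90 in WT arrays. Of 10 pit cell genes 0 passed, and of 14 squamous genes 4 passed, again near the share of all genes, 3 higher and 1 lower. Of 8 smooth muscle genes 8 fell, of 7 fibroblast genes 7 fell and of 8 pancreatic acinar genes 4 fell. The part of the muscle and neutrophil genes in the chief cell differences was not tested.

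Rab3d was higher in pL2 than in WT mice at MRI. It was 9.14, 9.47 and 9.58 in pL2 mice, against 8.97, 8.88 and 8.84 in WT mice, without overlap. The difference was 0.50 ± 0.18 (adjusted p = 0.0435), and limma called 1 of 10 members, against 23.0% of all genes. On Freising chow Rab3d differed by -0.09 ± 0.18, where limma called 0 of 10 members against 1.64% of all genes. There 2 members and 2463 of all 15242 genes had an unadjusted p under 0.05. On HFD Rab3d differed by 0.12 ± 0.18, where limma called 0 of 10 members against 1.16% of all genes. There 0 members and 2265 genes had an unadjusted p under 0.05. The Rab3d difference between facilities, Freising minus MRI, was -0.59 ± 0.26 (adjusted p = 0.202) and did not pass. In this test of a difference 0 of 10 members passed, against 1.76% of all genes, with 1 member and 2859 genes at an unadjusted p under 0.05. WT and pL2 arrays of each facility belong to a different series of sample titles, so facility and title series cannot be told apart. Between pL2_FXR and FXR mice, also at MRI on chow, Rab3d differed by -0.01 ± 0.18 (limma adjusted p = 0.976). Against WT mice at MRI, Rab3d was 0.44 ± 0.18 higher in the FXR line, without overlap (adjusted p = 0.209). The Rab3d call held without 1 of the 6 arrays (replicate 1 of pL2 mice) and ended without each of the other 5, with adjusted p between 0.0195 and 0.173. It also ended with no filter on dim genes (adjusted p = 0.0589), with the compared groups fitted alone (adjusted p = 0.0924), with the mean of both probe sets (0.38, adjusted p = 0.166) and without the 10 arrays high in hepatocyte or intestinal genes (adjusted p = 0.0822). A second, dim Rab3d probe set (mean 4.65 over the arrays, against 9.11 for the brighter) gave a difference of 0.27 at MRI, and their r over the arrays was 0.57.

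**Figure D4:**
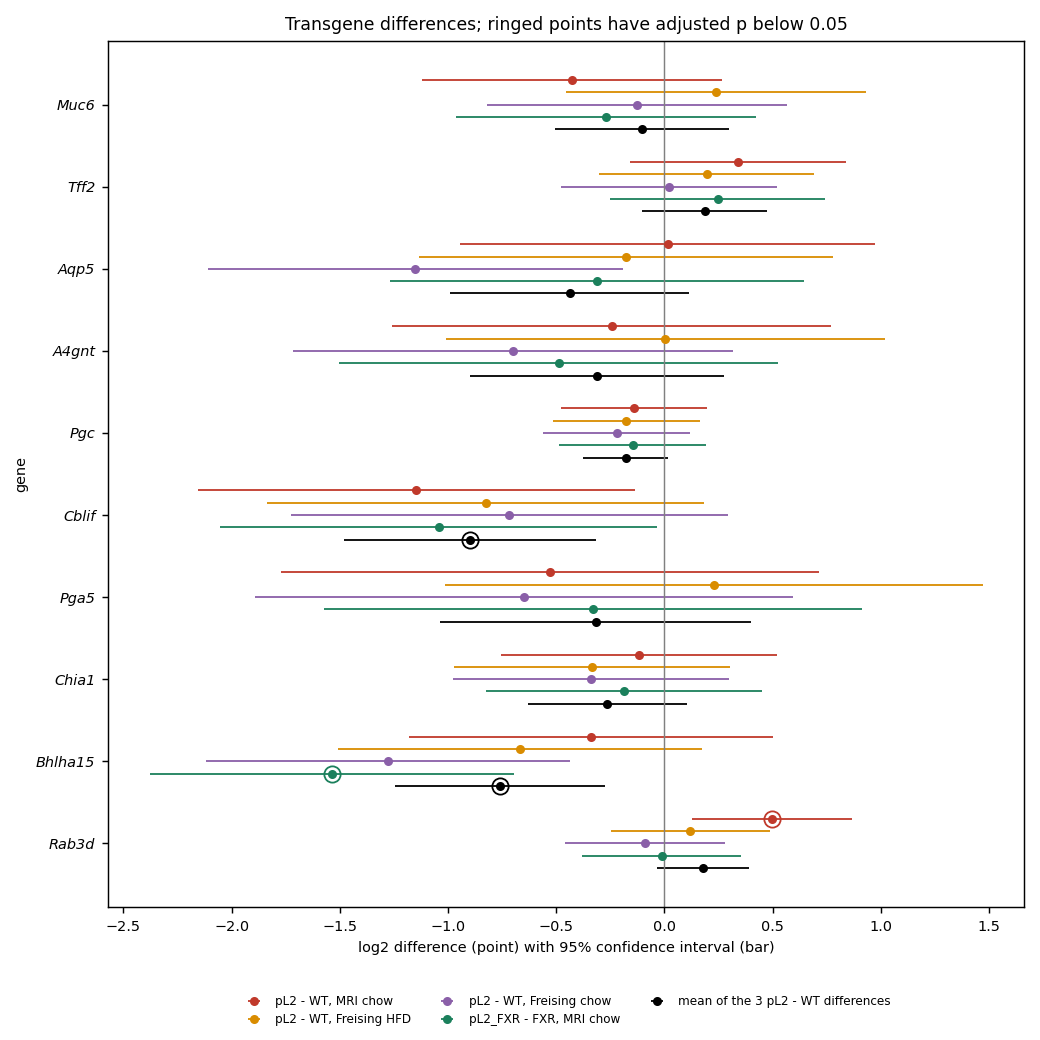
Log2 differences of the 10 genes (vertical axis) between pL2 and WT mice in each setting, between pL2_FXR and FXR mice, and as the mean of the 3 pL2 minus WT differences; points are differences, bars 95% confidence intervals and rings adjusted p below 0.05. Pgc, Cblif, Chia1 and Bhlha15 lie left of 0 in all 5 estimates, of which the mean is not separate from the 3 it averages. Rab3d lies right of 0 in pL2 against WT mice at MRI, and at -0.01 in pL2_FXR against FXR mice.

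In mice of the FXR line, Bhlha15 fell with the transgene. It was 7.35, 5.84 and 5.51 in pL2_FXR mice, against 8.62, 7.54 and 7.15 in FXR mice. The groups overlapped, since the first pL2_FXR array lay above the third FXR array. The difference was -1.54 ± 0.41 (adjusted p = 0.0149), or 2.90-fold lower. In this comparison limma called 1 of 10 members, a share near the 10.1% of all genes. Cblif, at 11.95, 10.11 and 11.03 in pL2_FXR mice, against 12.30, 12.29 and 11.64 in FXR mice, gave -1.04 ± 0.50 (adjusted p = 0.175). Further chief cell genes fell beside Bhlha15, 3 of 4 tested: Gper1 (-2.32 ± 0.65), Rnase1 (-1.74 ± 0.24) and Tnfrsf19 (-1.53 ± 0.40).

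Squamous genes also separated these groups. Of 14 squamous genes 8 rose, with list means of 8.89, 9.59 and 9.38 in pL2_FXR mice, against 6.94, 7.49 and 8.09 in FXR mice; of 17 neck and SPEM genes 8 rose, such as Muc4 (3.89 ± 0.58) and Dmbt1 (3.86 ± 0.53). With the squamous mean as a covariate Bhlha15 differed by -0.60 (adjusted p = 0.518). The call also ended with the compared groups fitted alone, where the difference stayed at -1.54 (adjusted p = 0.130), and with the pit and parietal covariate (-1.07, adjusted p = 0.088). It also ended without FXR replicate 1 (-1.11, adjusted p = 0.139), pL2_FXR replicate 2 (-1.34, adjusted p = 0.0962) or pL2_FXR replicate 3 (-1.17, adjusted p = 0.120). The Bhlha15 difference did not pass as larger than that at MRI without FXR (-1.20 ± 0.59, adjusted p = 0.352). In that test 0 of 10 members passed, against 0.138% of all genes, with 1 member and 2139 of all 15242 genes at an unadjusted p under 0.05.

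The FXR line itself was compared with WT mice at MRI. limma called 0 of 10 members, against 2.12% of all genes, with 2 members and 2408 of all 15242 genes at an unadjusted p under 0.05. The largest difference was that of Bhlha15, at 8.62, 7.54 and 7.15 in FXR mice, against 6.69, 6.27 and 6.53 in WT mice, without overlap (1.27 ± 0.41, adjusted p = 0.0996). The 10 differences ran from 0.13 (Pgc) to 1.27 and had a median of 0.34, and that of all genes was 0.02. Of 14 squamous genes 9 fell, with list means of 6.94 to 8.09 in FXR mice, against 9.09 to 10.05 in WT mice, and with that mean as a covariate Bhlha15 differed by 0.24 (adjusted p = 0.917). In pL2_FXR against pL2 mice, limma called 0 of 10 members, against 0.0853% of all genes. There 1 member and 1115 genes had an unadjusted p under 0.05. Muc6 had 12.04, 11.60 and 11.39 in pL2_FXR mice, against 11.56, 10.35 and 10.64 in pL2 mice (0.83 ± 0.34, adjusted p = 0.561). The other 9 genes differed by -0.07 (Rab3d) to 0.53 (A4gnt).

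The IL8 line at 12 months was compared with pL2 mice at MRI, whose arrays belong to another series of sample titles, so line and title series cannot be told apart. limma called 0 of 10 members, against 1.82% of all genes, with 2 members and 2588 of all 15242 genes at an unadjusted p under 0.05. Aqp5, the water channel gene, came nearest: it was 7.51, 7.74 and 7.44 in IL8 mice, against 6.44, 5.28 and 6.26 in pL2 mice, without overlap. The difference was 1.57 ± 0.47 (adjusted p = 0.0707), which passed with the squamous mean (1.69, adjusted p = 0.0368) or the pit and parietal mean (1.63, adjusted p = 0.0415) as a covariate, and without pL2 replicate 1 (1.79, adjusted p = 0.0472). It did not pass without pL2 replicate 2, whose Aqp5 was lowest (1.21, adjusted p = 0.370), with the compared groups alone (1.57, adjusted p = 0.158), without the arrays high in hepatocyte or intestinal genes (1.73, adjusted p = 0.189) or in the other 8 settings and refits tried. Cblif was 12.05, 11.82 and 11.29 in IL8 mice, also without overlap with pL2 mice (1.06 ± 0.50, adjusted p = 0.267), and the other 8 genes differed by -0.20 (Rab3d) to 0.82 (Pga5). Between IL8 mice at 12 and 9 months, limma called 0 of 10 members and 0% of all genes, with 0 members and 1184 genes at an unadjusted p under 0.05. Pga5 was 8.09, 8.07 and 8.87 at 12 months, against 9.91, 9.06 and 9.10 at 9 months, without overlap (-1.01 ± 0.61, adjusted p = 0.773), and the other 9 genes differed by -0.52 (Muc6) to 0.18 (Pgc).

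Each Notch line was set against the same 3 pL2 arrays at MRI, which had the lowest group means of Muc6 and A4gnt, and which differ from the Notch lines also in title series, age and tamoxifen. limma called 0 of 10 members in each of the 6 comparisons. The share of all genes called was 0.144% in Lgr5_Notch1fl, 0.0525% in Lgr5_Notch2fl, 0.138% in Lgr5_Notch2IC, 0% in Dclk_Notch1fl (1589 genes at an unadjusted p under 0.05), 0.256% in Dclk_Notch2fl and 0.0197% in Dclk_Notch2IC. Unadjusted p was under 0.05 for 4, 2, 2, 1, 1 and 3 members in that order. It was under 0.05 for 2209, 1385, 1892, 1589, 1980 and 1016 of all 15242 genes. The 10 differences ran from -0.57 (Cblif) to 1.58 (Pga5) in Lgr5_Notch1fl, from -0.26 (Rab3d) to 1.06 (A4gnt) in Lgr5_Notch2fl and from -0.79 (Pga5) to 0.72 (Aqp5) in Lgr5_Notch2IC. They ran from -0.28 (Tff2) to 0.81 (Muc6) in Dclk_Notch1fl, from -0.28 (Rab3d) to 0.92 (A4gnt) in Dclk_Notch2fl and from -0.10 (Rab3d) to 1.26 (Aqp5) in Dclk_Notch2IC.

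Muc6, the gland mucin gene, was 12.32, 11.31 and 12.51 in Lgr5_Notch1fl mice, against 11.56, 10.35 and 10.64 in pL2 mice, with overlap. The difference was 1.19 ± 0.34 (adjusted p = 0.121). In the other 5 lines the Muc6 difference was 0.70 to 1.16, with an SE of 0.34 and adjusted p between 0.285 and 0.419; in Dclk_Notch2IC mice (11.80, 11.96 and 12.28) the arrays did not overlap with those of pL2 mice. These values share their pL2 arrays, so they are not separate evidence. Pga5 was 8.85, 8.61 and 9.84 in Lgr5_Notch1fl mice, against 7.95, 7.00 and 7.62 in pL2 mice, without overlap (1.58 ± 0.61, adjusted p = 0.241). With the pit and parietal mean as a covariate, Muc6 (1.54, adjusted p = 0.0121) and Pga5 (2.25, adjusted p = 0.0288) passed in Lgr5_Notch1fl. Muc6 also passed there without pL2 replicate 1 (adjusted p = 0.0355), against an adjusted p of 0.438 without pL2 replicate 2 and 0.795 with the compared groups alone. The Pgc difference (-0.39, adjusted p = 0.278) rested on Lgr5_Notch1fl replicate 2, the array highest in hepatocyte genes: it was -0.05 (adjusted p = 0.933) without that array, and passed at -0.66 (adjusted p = 0.0182) without replicate 3.

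In the Lgr5_Notch2IC line, single arrays lay far from the others for several members. Tff2 was 12.64, 12.98 and 11.29 there, against 12.85, 12.78 and 12.83 in pL2 mice (-0.52 ± 0.24, adjusted p = 0.387), a difference that rested on replicate 3, the array highest in intestinal genes. It was -0.01 (adjusted p = 0.997) without replicate 3, and -0.85 (adjusted p = 0.0474) without replicate 2. The activated and the floxed Notch2 lines, which share a title series, were also compared. In the Lgr5 lines limma called 0 of 10 members, against 0.0722% of all genes, with 2 members and 1084 of all 15242 genes at an unadjusted p under 0.05. Pga5 was 6.11, 8.72 and 5.38 in Lgr5_Notch2IC mice, against 9.41, 8.96 and 6.77 in Lgr5_Notch2fl mice, which overlap (-1.64 ± 0.61, adjusted p = 0.589), and the other 9 genes differed by -0.91 (A4gnt) to 0.22 (Aqp5). In the Dclk lines limma called 0 of 10 members, against 0.0328% of all genes, with 0 members and 793 genes at an unadjusted p under 0.05. Pga5, at 8.20, 8.40 and 8.54 in Dclk_Notch2IC mice, against 6.85, 7.68 and 7.76 in Dclk_Notch2fl mice, did not pass (0.95 ± 0.61, adjusted p = 0.945). The other 9 genes differed by 0.00 (Pgc) to 0.79 (Aqp5).

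No member passed the test in either comparison of HFD with chow. In pL2 mice, limma called 0 of 10 members and 0% of all genes, with 0 members and 872 genes at an unadjusted p under 0.05. In WT mice it called 0 of 10 members against 0.164% of all genes, with 0 members and 660 genes at an unadjusted p under 0.05. Aqp5 had the largest difference in pL2 mice, at 7.27, 6.59 and 6.18 on HFD, against 5.32, 5.57 and 6.42 on chow, with overlap (0.91, 95% interval -0.05 to 1.87, adjusted p = 0.878). Cblif differed by 0.00 (-1.01 to 1.01) in pL2 mice and by 0.11 (-0.90 to 1.12) in WT mice, and these intervals reach beyond a 2-fold difference on at least 1 side. For Pgc the interval was -0.38 to 0.29 in pL2 mice and -0.43 to 0.25 in WT mice, with signals near the highest of any probe set. Over all 10 genes the differences ran from -0.07 (Chia1) to 0.91 in pL2 mice and from -0.38 (Bhlha15) to 0.11 (Cblif) in WT mice.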

How the data were processed

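Total RNA of whole junction and cardia tissue from 48 samples in 16 groups was hybridised to Affymetrix arrays. The deposited values are log2 signals per probe set, made by the authors with RMA in Affymetrix Expression Console, per the submitters' processing notes; the version, probe positions and genome build are not given in the sources used here. RMA includes quantile normalisation, so values are relative to each array's other probe sets. Levels of different genes are not ranked against each other, since probe sets differ in brightness.

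Of 34390 probe sets, 23521 with 1 gene symbol were used, 1814 with several symbols and 9055 with none were left out, and the brightest set stood for each of 22180 symbols. A symbol was tested if its signal exceeded the median in 3 or more arrays (15242 symbols). With limma 3.58.1 (R 4.3.3), a model of 16 group means over 48 arrays gave 21 comparisons (moderated variance, two-sided), with Benjamini-Hochberg adjustment over all tested genes. Adjusted p below 0.05 is a call. The fit was tested on simulated data. Groups come from genotype, facility, diet and age labels; replicate numbers name arrays only.

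All 10 genes were tested in every comparison, with values given for those that passed and for some others, and the rest by range; named with them are up to 4 of the most changed called genes of each marker list and the 5 most correlated symbols of each member. The members, gene lists and comparisons were chosen with earlier results of these data known. Alternatives changed the filter (none, or stricter), used the average over a symbol's probe sets, fitted the compared groups alone, applied cyclic loess, added covariates of squamous or of pit and parietal markers, and left out each array. Dropping the 10 arrays whose hepatocyte or intestinal list mean exceeded 8 was added after the data were seen. Sequences are RefSeq's.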

Additional observations from a re-analysis of the deposited data

How the results depend on the processing

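Of 4 member differences that passed, 0 passed under every alternative, and of 206 that did not pass, 198 passed under none. No called difference changed direction. In 15 of 21 comparisons no member passed in any setting. For pL2 against WT mice at MRI, the count of 1 member became 0 with no filter, with the mean of all probe sets, with the compared groups alone and without the 10 arrays high in hepatocyte or intestinal genes, and 2 with the pit and parietal covariate, which added Cblif (-1.05, adjusted p = 0.0402); leaving out 1 array gave 0 to 1. For the mean of the 3 transgene differences, leaving out 1 array gave 0 to 2 members and each other setting 2; these were Cblif and Bhlha15 except with the pit and parietal covariate (Tff2 and Rab3d). Without the arrays high in hepatocyte or intestinal genes, Cblif was -0.97 (adjusted p = 0.0195) and Bhlha15 -0.81 (adjusted p = 0.0253). For pL2_FXR against FXR mice, 1 member became 0 with the compared groups alone, with either covariate and without the arrays high in hepatocyte or intestinal genes (Bhlha15 -1.17, adjusted p = 0.117), and leaving out 1 array gave 0 to 1. For the IL8 line at 12 months against pL2 mice, 0 became 1 with either covariate, and leaving out 1 array gave 0 to 1. For Lgr5_Notch1fl against pL2 mice, 0 became 2 with the pit and parietal covariate, and leaving out 1 array gave 0 to 1; for Lgr5_Notch2IC it gave 0 to 1.

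Counts over all genes moved by more than 1.5 times in 52 of 168 refits. Against counts in the main setting, the lowest and highest over the settings other than leaving out 1 array were 2042 and 3982 for the transgene at MRI (3512), 139 and 324 on Freising chow (250), 16 and 294 on HFD (177), 19 and 412 for its difference between facilities (268), 1 and 341 for FXR against WT (323), 727 and 1578 for pL2_FXR against FXR (1547), 0 and 58 for the transgene difference by FXR (21), 0 and 14 for pL2_FXR against pL2 (13), and 0 and 464 for IL8 against pL2 (278). For the Notch lines against pL2 they were 0 and 478 in Lgr5_Notch1fl (22), 1 and 21 in Lgr5_Notch2fl (8), 0 and 73 in Lgr5_Notch2IC (21), 0 and 19 in Dclk_Notch1fl (0), 1 and 46 in Dclk_Notch2fl (39) and 0 and 14 in Dclk_Notch2IC (3). Activated against floxed Notch2 gave 0 and 62 in Lgr5 (11) and 1 and 5 in Dclk (5), and IL8 at 12 against 9 months 0 and 1 (0). Leaving out 1 array moved these counts further in several comparisons: to between 65 and 382 on Freising chow, 29 and 811 on HFD, 19 and 990 for the difference between facilities, 73 and 281 for FXR against WT, 0 and 223 for pL2_FXR against pL2, 577 and 1937 for pL2_FXR against FXR, 0 and 252 for the transgene difference by FXR, and 23 and 619 for IL8. For the Notch lines it gave 1 to 480 in Lgr5_Notch1fl, 7 to 56 in Lgr5_Notch2fl, 0 to 487 in Lgr5_Notch2IC, 0 to 83 in Dclk_Notch1fl, 6 to 240 in Dclk_Notch2fl and 1 to 44 in Dclk_Notch2IC, and for HFD in WT mice 5 to 25 (25). The cause of these shifts was not tested.

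With 3 arrays per group, the number of arrays limits the precision, and 120 of 210 intervals of a member's difference reach beyond a 2-fold change. No paired analysis was possible because the labels number no replicates (the numbers used here follow accession order and only name arrays) and tie no array of one group to an array of another.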
